A study of Mus musculus with 4 samples.

Results

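The genes described here carry a mouse symbol made of Zfp and a number, with or without a suffix letter, and were chosen by their RNA level in testis: 1 RPKM or more in at least 1 of 2 RNA-seq libraries. RPKM is a read density scaled to gene length and library size. There were 250 such genes among 392 Zfp genes in a table of 22808 genes, of which 9951 reached the same level. One library came from Piwil1-/- testis and one from Piwil1+/- testis, both at postnatal day 23, and the question was how testis RNA differs without PIWIL1, the PIWI protein that binds piRNAs in spermatocytes and round spermatids. The heterozygote carries 1 mutant allele and serves as the control, so no wild-type RNA is compared. The labels name neither the strain nor the number of animals behind an RNA-seq library. PIWIL1-bound small RNAs of adult wild-type testis, also sequenced in the study, were not used here.

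Zfp symbols are mostly given to proteins with C2H2 zinc fingers, short loops held by a zinc ion through cysteines and histidines that read DNA bases in tandem. Many also carry a KRAB domain, which recruits the corepressor TRIM28 and with it the histone methyltransferase SETDB1, and such proteins silence retroelements and keep imprints. Their genes lie in clusters that grew by duplication. Some Zfp symbols stand for other folds, such as the RNA-binding CCCH fingers of Zfp36 or the LIM domain of Zfp185.

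Levels chose the members, so levels and ratios are descriptions, and with 1 library per genotype there is no replicate error and no p-value. A gene was called higher or lower where the ratio of RPKM + 1, Piwil1-/- over Piwil1+/-, reached 1.5-fold, with 2-fold given beside it. Log2 ratios are on that scale, which understates the change of low genes, while folds of single genes are ratios of the RPKM itself. The bracketed 95% exact binomial intervals come from read numbers worked out from each pair of values, the least that give it, and cover counting error only. The values imply 100254357 reads in the Piwil1-/- library and 104014686 in the Piwil1+/- library. Reads could be worked out for 245 members, with a median of 1536 over both libraries and a lowest total of 74. Where the true numbers are multiples of these, the intervals are wider than counting error gives.

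Piwil1 itself was listed at 0 in Piwil1-/- testis, against 26.2 RPKM in Piwil1+/- testis. The 9 meiotic prophase markers ranged from Mei1, at 1.86 (Piwil1-/-) and 1.37 RPKM (Piwil1+/-), to Sycp2, at 233 (Piwil1-/-) and 216 RPKM (Piwil1+/-). Of the 9, 7 had a log2 ratio above 0, and the median was 0.13. Rec8 and Syce2 were below 0, at -0.20 and -0.23. Of 7 spermatogonial markers 4 were measured, with a median of 0.01, and of 3 leukocyte markers only Adgre1, at -0.02. The 6 late pachytene and division markers were mixed, from Pgk2 at -0.29 to Ybx2 at 0.43. Of these 2 were above 0, and the median was -0.06. Most spermatid markers were lower in Piwil1-/-. The 8 round spermatid markers summed to 243 RPKM in Piwil1-/- and 282 RPKM in Piwil1+/-, with a median ratio of -0.53. Only 1 of them, Fhl5 at -1.35, passed 1.5-fold. Spata16 at 0.05 and Dpy19l2 at 0.03, which make up much of both sums, and Acr at -0.09 differed little. Of 8 elongating spermatid markers 6 were measured, all at least 2-fold lower and summing to 39.2 RPKM in Piwil1-/- and 128 RPKM in Piwil1+/-. Prm1, Prm2 and Tnp1 were at 0 in Piwil1-/-, but were also low in Piwil1+/-, at 0.06, 1.42 and 0.46 RPKM. The 5 measured Sertoli cell markers had a median ratio of 0.10 and the 4 measured Leydig cell markers one of -0.22. Of 3 peritubular markers Actg2, a smooth muscle actin, was at 3.04 RPKM in Piwil1-/- and 17.6 RPKM in Piwil1+/-, while the other two had ratios of 0.14 (Acta2) and 0.01 (Myh11). Of 4 epididymis markers 2 were measured, Cst8 at 2.86 RPKM in Piwil1-/- and 12.9 RPKM in Piwil1+/- and Rnase10 at a ratio of -0.50, and Crisp1 and Defb1 were at 0 in both libraries. Of 2 red blood cell markers Hbb-bs had a ratio of -0.60 and Hba-a1 was under 1 RPKM. The part of these cell types and stages in the Zfp ratios was not tested, and in whole testis fewer cells of a type and less RNA per cell cannot be told apart.

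Zfp genes were expressed at low to moderate levels. The median member was at 4.28 RPKM in Piwil1-/- and 3.91 RPKM in Piwil1+/-, while all 9951 genes had medians of 6.30 RPKM in Piwil1-/- and 6.54 RPKM in Piwil1+/-. A mean level under 5 RPKM was found for 55.6% of members and 43.2% of all genes, and one of 20 RPKM or more for 10% of members and 21.1% of all genes. Both libraries reached the threshold for 237 members, 9 reached it only in Piwil1-/- and 4 only in Piwil1+/-. Just inside it, Zfp273 had 0.719 (Piwil1-/-) and 1.003 RPKM (Piwil1+/-), Zfp385b had 0.893 (Piwil1-/-) and 1.01 RPKM (Piwil1+/-) and Zfp14 had 0.987 (Piwil1-/-) and 1.03 RPKM (Piwil1+/-). Just outside it, Zfp449 had 0.999 (Piwil1-/-) and 0.759 RPKM (Piwil1+/-), Zfp446 had 0.993 (Piwil1-/-) and 0.973 RPKM (Piwil1+/-) and Zfp786 had 0.983 (Piwil1-/-) and 0.906 RPKM (Piwil1+/-). Of the 142 Zfp genes left out, 43 had a mean of 0.5 RPKM or more and 10 were at 0 in both libraries.

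**Figure D1:**
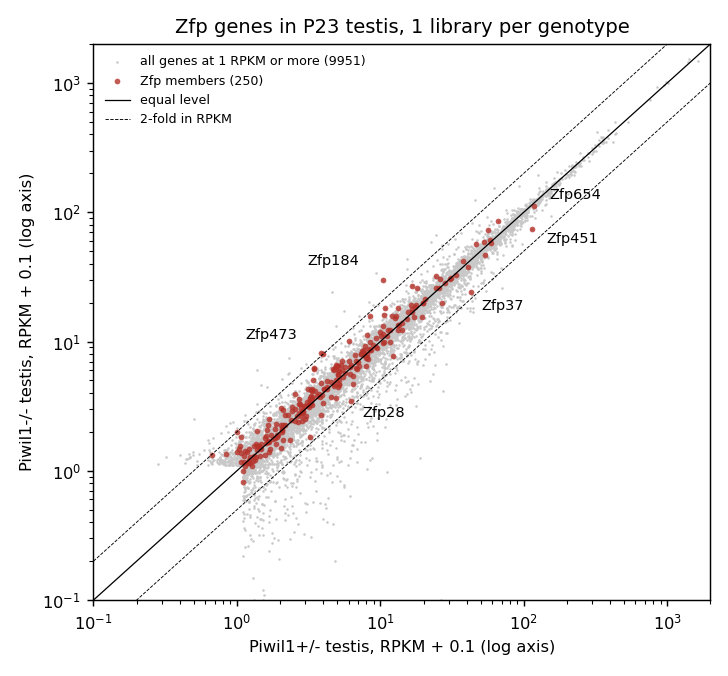
Levels of the 250 Zfp members (red) and of all 9951 genes at 1 RPKM or more in either library (grey), with Piwil1-/- on the vertical and Piwil1+/- on the horizontal axis, both as RPKM + 0.1 on log axes; each point is a gene, with 1 library per genotype. Of the members 15 lie 1.5-fold or more from equality on the scale of RPKM + 1.

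The most abundant member was Zfp654, with 111 RPKM in Piwil1-/- testis, against 119 RPKM in Piwil1+/- testis, which ranked 185th of the 9951 genes by mean level. Zfp451, whose human counterpart ZNF451 is a SUMO ligase, followed with 74.5 RPKM in Piwil1-/- testis, against 114 RPKM in Piwil1+/- testis. Zfp644, whose human counterpart works with the histone methyltransferases G9a and GLP, had 85.6 RPKM in Piwil1-/- testis, against 66.03 RPKM in Piwil1+/- testis. Zfp451 was lower and Zfp644 higher in Piwil1-/-, and only the first of them passed 1.5-fold.

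Zfp318, a nuclear protein that mouse B cells need for IgD, had 72.9 RPKM in Piwil1-/- testis, against 56.5 RPKM in Piwil1+/- testis. Zfp638, whose human counterpart silences unintegrated retroviral DNA, had 58.6 (Piwil1-/-) and 52.9 RPKM (Piwil1+/-). Zfp91, a ubiquitin ligase, had 56.7 (Piwil1-/-) and 46.2 RPKM (Piwil1+/-). All of them were higher in Piwil1-/- but short of 1.5-fold. Zfp991 had 61.3 (Piwil1-/-) and 58.3 RPKM (Piwil1+/-), and Zfp110, a partner of the p75 neurotrophin receptor, had 57.7 (Piwil1-/-) and 58.5 RPKM (Piwil1+/-). The other members among the 12 most abundant were Zfp646, Zfp62, Zfp39 and Zfp37, at mean levels from 33.4 to 50.5 RPKM.

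Between the genotypes, Zfp genes leaned to the higher side in Piwil1-/- testis by a small amount. A log2 ratio above 0 was found for 162 of 250 members (64.8%), against 51.2% of all genes. Their median ratio was 0.06, against 0.0055 over all genes, and their quartiles were -0.03 and 0.19, against -0.12 and 0.11. At 1.5-fold, 10 members (4%) were higher and 5 (2%) lower, against 1.42% and 5.21% of all genes. At 2-fold, 1 member (0.4%) was higher and 0 were lower, against 0.231% and 1.96%. Counted either way, 15 members (6%) passed 1.5-fold, a share near the 6.62% of all genes, and 1 (0.4%) passed 2-fold, against 2.19%. A pseudocount of 0.1 RPKM gave 17 members higher and 5 lower. Among the 237 members at 1 RPKM or more in both libraries, 9 were higher and 5 lower.

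The difference in sign was present in each of 4 level ranges. From 1 to 2 RPKM, 59.02% of 61 members and 50.9% of all genes had a ratio above 0. From 2 to 5 RPKM the shares were 67.6% and 51.8%, and from 5 to 20 RPKM they were 67.4% and 53.04%. At 20 RPKM or more they were 64.0% of 25 members and 48.3% of all genes. By the intervals from these least read numbers, the fold lay wholly above 1 for 99 of 245 members (40.4%). Among all genes with read numbers the share was 26.9%. The fold lay wholly below 1 for 36 members (14.7%), against 26.6% of those genes.

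By sign and median, other zinc finger families, pooled by symbol and not by type of finger, lay between the members and all genes. The pool held Zbtb, Zdhhc, Zc3h, Zkscan, Zscan, Zswim, Klf, Zmynd, Znhit and Zmat genes with Zfx, Zfy1 and Zfy2. Of 108 measured genes of these families 61 (56.5%) had a ratio above 0, with a median of 0.03. At 1.5-fold 1 of the 108 was higher and 3 were lower, against 1.42% and 5.21% of all genes. The families varied, from 8 of 9 Zkscan genes above 0 through 18 of 31 Zbtb genes and 3 of 9 Zscan genes to 1 of 5 Zmynd genes. The Zkscan median of 0.11 was above that of the members, and the Zmynd median was -0.14.

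**Figure D2:**
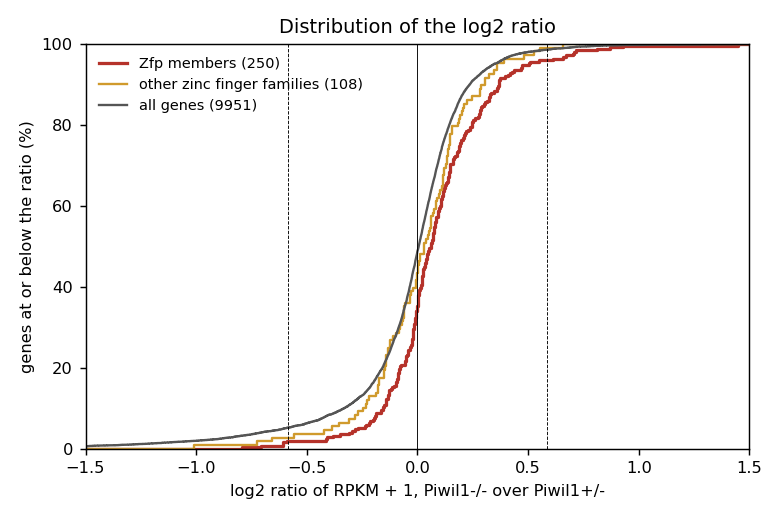
Cumulative share of genes (vertical axis, percent) by log2 ratio of RPKM + 1, Piwil1-/- over Piwil1+/- (horizontal axis, drawn from -1.5 to 1.5), for 250 Zfp members, 108 genes of other zinc finger families and all 9951 genes; dashed lines mark 1.5-fold. The members' median is 0.06 and that of all genes 0.0055, and 2% of members and 5.21% of all genes lie beyond the lower line.

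Zfp184 had the largest ratio of the members, at 1.45. It had 30.03 RPKM in Piwil1-/- testis, against 10.4 RPKM in Piwil1+/- testis, a fold of 2.89 (2.73 to 3.07) from at least 4332 and 1554 reads. It was the only member past 2-fold on the scale of RPKM + 1. The gene lies on chromosome 13 (21945053 to 21960791, mm10), and its span overlaps that of Gm11282.

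Zfp473, whose human counterpart acts with the U7 snRNP in forming histone mRNA ends, had 8.05 RPKM in Piwil1-/- testis, against 3.75 RPKM in Piwil1+/- testis. Its fold was 2.15 (2.07 to 2.22) from at least 9499 and 4592 reads, and it lies on chromosome 7 (44731480 to 44748617). Zfp113 on chromosome 5 (138139702 to 138155744) had 7.91 RPKM in Piwil1-/- testis, against 3.87 RPKM in Piwil1+/- testis, a fold of 2.04 (1.71 to 2.45). Their log2 ratios were 0.93 and 0.87.

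Zfp949 had 15.5 (Piwil1-/-) and 8.42 RPKM (Piwil1+/-), a fold of 1.85 (1.77 to 1.93), and Zfp850 had 18.05 (Piwil1-/-) and 10.6 RPKM (Piwil1+/-), a fold of 1.70 (1.60 to 1.81). The other 5 members past 1.5-fold on this side were Zfp729b, Zfp607b, Zfp72, Zfp397 and Zfp953, with RPKM folds from 1.61 for Zfp397 to 2.11 for Zfp953. Zfp953 was low, at 1.91 (Piwil1-/-) and 0.904 RPKM (Piwil1+/-), and its span overlaps that of Zfp595. Just short of the threshold were Zfp507 at 0.55 and Zfp688 at 0.51. Zfp688 had 1.23 (Piwil1-/-) and 0.57 RPKM (Piwil1+/-) and passed it with a pseudocount of 0.5 or 0.1 RPKM.

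On the lower side Zfp37, a gene transcribed in mouse male germ cells, had the lowest log2 ratio of RPKM + 1, at -0.79. By the fold of the RPKM itself Zfp28 and Zfp185 were lower, and with a pseudocount of 0.1 RPKM Zfp28 was the lower, at -0.85 against -0.81 for Zfp37. Zfp37 had 24.2 RPKM in Piwil1-/- testis, against 42.6 RPKM in Piwil1+/- testis, a fold of 0.568 (0.549 to 0.588) from at least 5052 and 9230 reads. It lies on chromosome 4 (62189537 to 62209129) and overlaps Gm30451. Zfp28 on chromosome 7 (6383206 to 6396637) had 3.37 RPKM in Piwil1-/- testis, against 6.15 RPKM in Piwil1+/- testis, a fold of 0.549 (0.488 to 0.616). For Zfp451 on chromosome 1 (33761541 to 33815602), at the levels above, the fold was 0.652 (0.627 to 0.678).

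The last 2 of the 5 were Zfp438 and Zfp185. Zfp438 had 7.65 (Piwil1-/-) and 12.2 RPKM (Piwil1+/-), a fold of 0.628 (0.592 to 0.666). Zfp185, whose human counterpart is an actin-bound LIM domain protein, had 1.74 (Piwil1-/-) and 3.12 RPKM (Piwil1+/-), a fold of 0.558 (0.501 to 0.62). Zfp330, Zfp474, Zfp58, Zfp93, Zfp597, Zfp940 and Zfp607a came next, with log2 ratios between -0.41 and -0.28 that did not reach 1.5-fold.

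**Figure D3:**
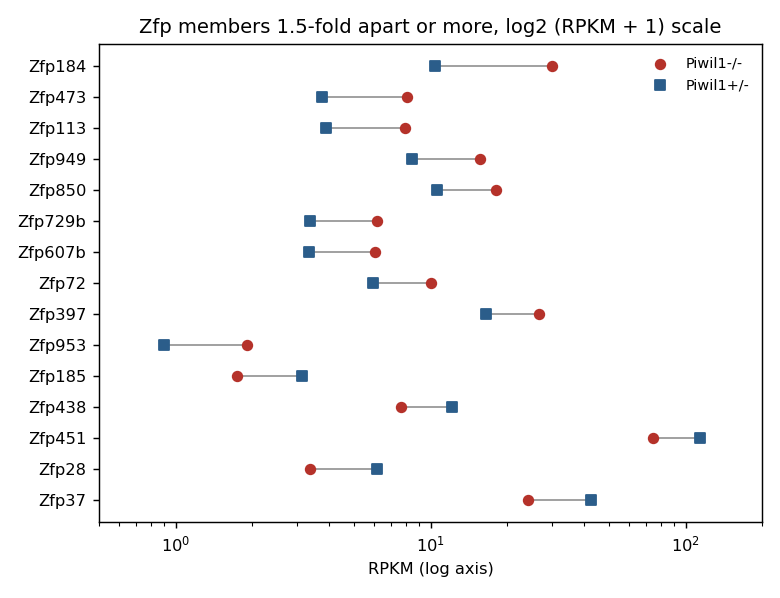
RPKM (horizontal log axis) of the 15 Zfp members 1.5-fold or more apart on the scale of RPKM + 1, in Piwil1-/- (red circles) and Piwil1+/- testis (blue squares), 1 library each, ordered by log2 ratio. The widest gap is that of Zfp184, at 30.03 RPKM in Piwil1-/- and 10.4 RPKM in Piwil1+/-.

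Zfp genes with known roles in silencing differed little between the libraries. Zfp57, which protects imprints, had 7.88 RPKM in Piwil1-/- testis, against 7.26 RPKM in Piwil1+/- testis, and Zfp445, which acts beside it, had 30.3 (Piwil1-/-) and 26.1 RPKM (Piwil1+/-). Their folds were 1.08 (1.04 to 1.13) for Zfp57 and 1.16 (1.13 to 1.19) for Zfp445. All 6 listed retroelement silencers were measured, 5 had a ratio above 0, the median was 0.11 and none reached 1.5-fold. Zfp809, which recognises the primer binding site of murine retroviruses, had 7.82 (Piwil1-/-) and 7.63 RPKM (Piwil1+/-), a fold of 1.03 (0.859 to 1.22). Zfp819 had the highest ratio of the 6, at 0.29, with a fold of 1.27 (1.16 to 1.39), and Zfp932 the lowest, at -0.07, with a fold of 0.939 (0.824 to 1.07). The CCCH genes Zfp36, Zfp36l1 and Zfp36l2, whose proteins speed the decay of AU-rich mRNAs, were under 1 RPKM in both libraries.

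Of 38 listed genes with germ cell or other roles 36 were in the table and 26 were measured. Of these 17 had a ratio above 0, the median was 0.02, and Zfp37 was the only one past 1.5-fold. Zfp541, which mouse spermatocytes need to leave the pachytene stage, had 12.3 RPKM in Piwil1-/- testis, against 13.1 RPKM in Piwil1+/- testis. Zfp42, the pluripotency marker REX1, had 2.53 (Piwil1-/-) and 2.52 RPKM (Piwil1+/-). Zfp207, a spindle protein known as BUGZ, had 32.6 (Piwil1-/-) and 33.8 RPKM (Piwil1+/-). Zfp105 had 30.8 (Piwil1-/-) and 30.8 RPKM (Piwil1+/-), and Zfp35 had 30.5 (Piwil1-/-) and 30.6 RPKM (Piwil1+/-).

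The partners of KRAB zinc finger proteins had higher levels than the members, with a median mean level of 17.2 RPKM, against 4.21 RPKM for the members. All 35 listed were measured, 20 had a ratio above 0, the median was 0.01 and none reached 1.5-fold. Trim28 had 61.6 RPKM in Piwil1-/- testis, against 57.02 RPKM in Piwil1+/- testis, and Setdb1 had 17.7 (Piwil1-/-) and 17.4 RPKM (Piwil1+/-). Cbx5, the heterochromatin protein HP1 alpha, had the highest ratio at 0.55, with 21.04 (Piwil1-/-) and 14.1 RPKM (Piwil1+/-).

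Of 23 measured genes flanking the 15 members within 100 kb, 1 passed 1.5-fold, near the 6.62% of all genes, so the count says nothing particular about these genes. Of the 23, 14 had the sign of the member, and their median ratio was 0.01. The 1 was Izumo2, of the IZUMO sperm protein family, 11632 bp from Zfp473, with 2.74 RPKM in Piwil1-/- testis, against 6.26 RPKM in Piwil1+/- testis, opposite in direction to Zfp473. Pom121l2, 20390 bp from Zfp184, had 39.5 (Piwil1-/-) and 38.2 RPKM (Piwil1+/-). Zfp78, 600 bp from Zfp28, had a ratio of 0.37, while that of Zfp28 was -0.71.

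Members were spread unevenly over the genome. Of 249 with a position, 54 lay on chromosome 7, 32 on chromosome 17 and 27 on chromosome 13. Chained by starts at most 500 kb apart, 94 members formed 11 runs of 5 or more. Their median ratio was 0.05 with 59 above 0, against 0.07 and 103 above 0 for the 155 others. Of the 10 higher members 4 lay in these runs, and of the 5 lower members 0.

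The 11 run medians lay between -0.05 and 0.14. Single members spread more widely: the 16 of the chromosome 13 run (67038594 to 67827000) had ratios from -0.38 for Zfp58 to 0.71 for Zfp729b. In the chromosome 7 run (27674661 to 28014210), Zfp607b had 6.08 (Piwil1-/-) and 3.34 RPKM (Piwil1+/-) and Zfp607a had 1.41 (Piwil1-/-) and 1.93 RPKM (Piwil1+/-), so these namesakes differed in opposite directions. Zfp729b had 6.14 (Piwil1-/-) and 3.37 RPKM (Piwil1+/-) and Zfp729a had 2.02 (Piwil1-/-) and 1.74 RPKM (Piwil1+/-). How reads shared by near copies were counted is not stated, so values within such pairs are uncertain. The same holds for the 90 of 249 members (36.1%) whose span overlaps another gene, against 47.5% of measured genes with a position. Zfp397, which overlaps Zscan30, and Zfp185, which overlaps Mir2137, are among the 90.

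**Figure D4:**
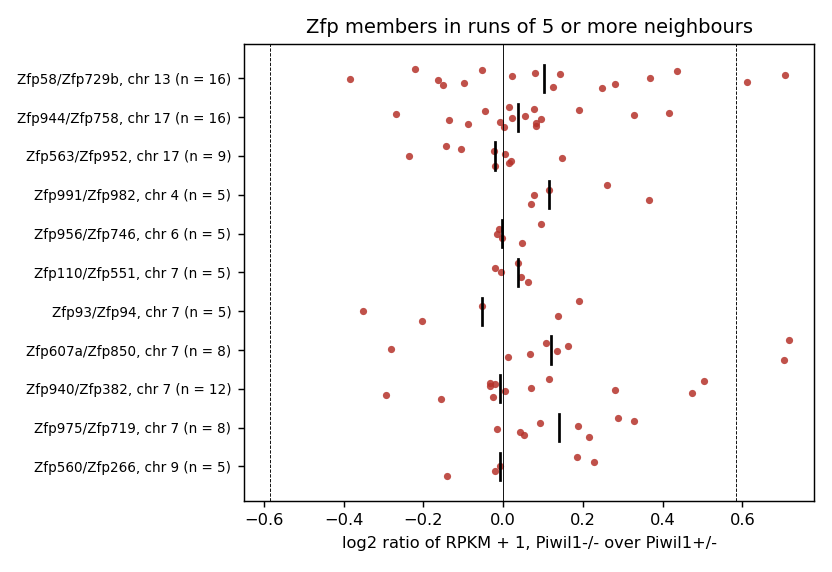
Log2 ratio of RPKM + 1, Piwil1-/- over Piwil1+/- (horizontal axis), of each Zfp member in the 11 genome runs of 5 or more, 1 row per run, with points stepped in genome order; black bars are run medians and dashed lines mark 1.5-fold. Run medians lie between -0.05 and 0.14, while members of the chromosome 13 run range from -0.38 to 0.71.

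Sequence around the starts was compared in windows from 250 bases before to 50 after, credited to RefSeq on GRCm38.p6 (mm10). A window was at hand for 211 members and for 7831 genes at 1 RPKM or more, members included, the most upstream where a gene had several. These genes were not matched to the members by level. Members had a median of 15 CpG per window, against 21, and a median GC content of 54.7%, against 60.3%. A set of 9 short letter patterns, each known as the site of a transcription factor, was searched on both strands. The search followed a reading of some of these windows, so the shares are descriptions and no test of a pattern. The letters are given with the shares. The windows of the 3 members with the highest and the 3 with the lowest ratios are shown, since these carry the largest differences, with all matches in capitals. Those of Zfp37 and Zfp451 lie wholly within the gene spans given above and do not reach the upstream end. Which starts are used in testis was not tested.
Zfp184, chr13:21944844-21945143, plus strand: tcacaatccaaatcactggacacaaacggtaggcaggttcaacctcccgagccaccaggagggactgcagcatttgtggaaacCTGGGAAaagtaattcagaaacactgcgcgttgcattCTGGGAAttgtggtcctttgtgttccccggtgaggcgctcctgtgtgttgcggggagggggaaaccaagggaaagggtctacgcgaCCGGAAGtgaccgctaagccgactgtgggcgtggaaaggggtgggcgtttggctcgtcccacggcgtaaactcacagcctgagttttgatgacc
Zfp473, chr7:44748568-44748867, minus strand: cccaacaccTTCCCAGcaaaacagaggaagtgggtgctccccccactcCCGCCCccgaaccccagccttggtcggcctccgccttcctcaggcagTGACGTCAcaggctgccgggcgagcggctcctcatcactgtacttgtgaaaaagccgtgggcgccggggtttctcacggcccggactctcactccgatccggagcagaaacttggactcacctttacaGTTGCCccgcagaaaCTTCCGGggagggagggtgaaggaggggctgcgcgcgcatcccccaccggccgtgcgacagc
Zfp113, chr5:138155695-138155994, minus strand: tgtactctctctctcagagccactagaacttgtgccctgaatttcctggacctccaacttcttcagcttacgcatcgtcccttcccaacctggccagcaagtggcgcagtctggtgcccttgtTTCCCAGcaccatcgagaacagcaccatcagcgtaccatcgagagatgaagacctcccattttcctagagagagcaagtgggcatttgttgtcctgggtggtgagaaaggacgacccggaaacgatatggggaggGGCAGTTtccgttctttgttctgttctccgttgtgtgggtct
Zfp37, chr4:62208497-62208796, minus strand: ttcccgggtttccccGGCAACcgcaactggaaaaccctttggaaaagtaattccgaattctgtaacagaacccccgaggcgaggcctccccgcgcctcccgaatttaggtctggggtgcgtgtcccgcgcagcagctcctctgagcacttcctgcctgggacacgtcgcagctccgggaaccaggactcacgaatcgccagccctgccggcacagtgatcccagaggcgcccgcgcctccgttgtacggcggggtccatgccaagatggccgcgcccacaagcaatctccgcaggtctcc
Zfp28, chr7:6383068-6383367, plus strand: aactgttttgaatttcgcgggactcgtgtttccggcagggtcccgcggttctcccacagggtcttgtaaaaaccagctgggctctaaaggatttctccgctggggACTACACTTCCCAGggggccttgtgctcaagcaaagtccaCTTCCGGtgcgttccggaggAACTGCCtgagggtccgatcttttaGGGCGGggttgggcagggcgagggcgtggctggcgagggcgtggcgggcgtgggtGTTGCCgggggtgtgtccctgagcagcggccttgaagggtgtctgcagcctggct
Zfp451, chr1:33814546-33814845, minus strand: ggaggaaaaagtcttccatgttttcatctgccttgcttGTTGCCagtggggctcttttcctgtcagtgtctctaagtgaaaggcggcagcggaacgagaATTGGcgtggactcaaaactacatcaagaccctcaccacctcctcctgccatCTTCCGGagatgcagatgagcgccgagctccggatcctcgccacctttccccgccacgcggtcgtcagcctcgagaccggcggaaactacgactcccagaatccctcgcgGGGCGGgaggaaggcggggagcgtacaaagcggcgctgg

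The pattern whose share differed most in proportion was the long form of the ZNF143 element. It has 12 letters, of which the seventh and the eighth may be any base, and these stand in capitals in the stretches printed for 8 members. It was in 39 of 211 member windows (18.5%), against 4.61% of genes at 1 RPKM or more and 1.97% of all 27025 windows. The short form, TTCCCAG, which can overlap the long one, was in 22.7% of member windows, against 10.6% of genes at 1 RPKM or more. The Sp1 letters GGGCGG were in 45.5% of member windows, against 61.6%. For NF-Y, the letters CCAAT were in 47.4% of member windows, against 39.9%.

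The other patterns differed by fewer percentage points. ETS factors were searched as CCGGAAG, found in 24.2% of member windows and 20.1% of genes at 1 RPKM or more. The site of CREM, the CRE with the letters TGACGTCA, was in 4.27% of member windows and 3.70% of those genes. A MYB site, AACNGCC, was in 17.5% of member windows and 14.6% of those genes. For RFX factors, GTTGCC was in 11.8% of member windows and 14.5% of those genes. The TATA box, as TATAAA, was in 5.21% of member windows and 6.82% of those genes. ZNF143 is an activator of snRNA and many mRNA genes, and its mouse gene Zfp143, itself a member, had 3.13 (Piwil1-/-) and 3.06 RPKM (Piwil1+/-).

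**Figure D5:**
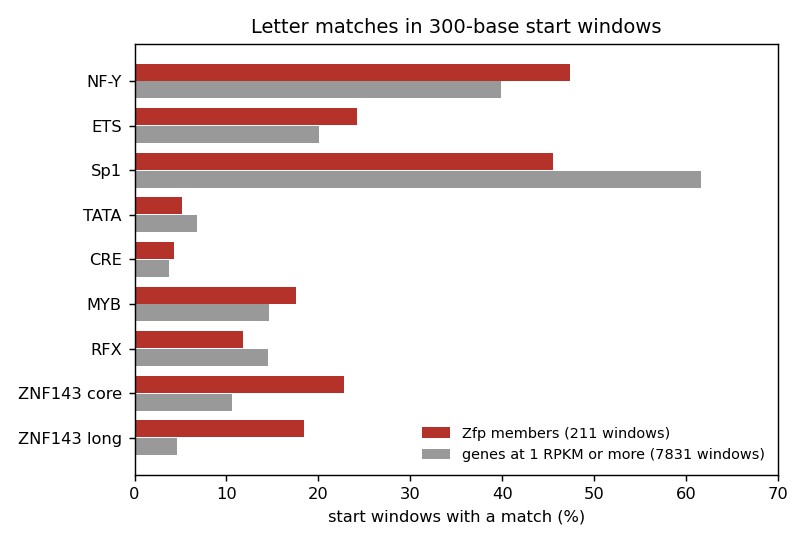
Share of 300-base start windows (horizontal axis, percent) that hold each set of letters on either strand, for 211 Zfp members (red) and 7831 genes at 1 RPKM or more (grey). The long ZNF143 form is at 18.5% of members and 4.61% of genes, and Sp1 at 45.5% and 61.6%.

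The long form lay mostly in the gene runs and near the start. It was in 30 of 88 windows of members in runs of 5 or more, in 9 of 123 other member windows, and in 13 of 14 windows of the chromosome 13 run. Of 40 copies 34 were centred within 100 bases before the start, 0 after it, and 28 read against the gene. The 4 most abundant members of that run and the 4 most abundant elsewhere with 20 bases on each side inside the window are shown in the element's own direction, with the element in capitals.
Zfp748, chr13:67553147-67553198, plus strand: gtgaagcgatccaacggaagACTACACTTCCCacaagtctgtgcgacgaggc
Zfp738, chr13:67683537-67683588, plus strand: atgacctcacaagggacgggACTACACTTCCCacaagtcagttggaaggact
Zfp759, chr13:67128156-67128207, minus strand: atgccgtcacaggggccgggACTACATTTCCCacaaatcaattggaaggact
Zfp58, chr13:67500522-67500573, plus strand: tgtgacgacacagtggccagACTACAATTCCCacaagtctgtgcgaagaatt
Zfp189, chr4:49521134-49521185, minus strand: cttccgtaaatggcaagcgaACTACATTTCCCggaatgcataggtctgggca
Zfp180, chr7:24081854-24081905, minus strand: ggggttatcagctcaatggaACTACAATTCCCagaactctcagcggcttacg
Zfp317, chr9:19621847-19621898, plus strand: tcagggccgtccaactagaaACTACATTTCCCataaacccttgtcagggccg
Zfp72, chr13:74390851-74390902, plus strand: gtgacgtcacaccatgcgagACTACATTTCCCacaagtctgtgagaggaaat

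Placed side by side, the 40 flanking bases matched at 15 to 34 places between pairs of the 4 run members, with a median of 19, and at 10 to 15 places between pairs of the other 4, with a median of 12. The closest pair was Zfp738 and Zfp759, and Zfp72, which lies outside the run, matched Zfp748 at 26 places. The matches to be had between unrelated sequences were not worked out, so the low counts do not show shared sequence. Members with the long form that are not printed were not compared. Among those printed, the closest matches beyond the element were between run members or between Zfp72 and run members. The shares above count every window all the same, so they are not shares of independent cases.

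Members with the long form had a median log2 ratio of 0.05, as did those without it. Of the 8 printed, Zfp58 was the lowest, with 4.62 RPKM in Piwil1-/- testis, against 6.33 RPKM in Piwil1+/- testis, and Zfp72 the highest, with 10.01 RPKM in Piwil1-/- testis, against 5.92 RPKM in Piwil1+/- testis. Among the members past 1.5-fold, 8 higher and 4 lower ones had a window, too few to read a share from, and every pattern is given. CRE letters were in 3 of the 8 (Zfp473, Zfp72 and Zfp953) and 0 of the 4, and the long ZNF143 form in 3 of the 8 and 1 of the 4. The short ZNF143 form was in 4 of the 8 and 1 of the 4. RFX letters were in 1 of the 8 and 4 of the 4, and NF-Y letters in 0 of the 8 and 2 of the 4. Sp1 letters were in 2 of the 8 and 3 of the 4, ETS letters in 2 of the 8 and 2 of the 4, MYB letters in 2 of the 8 and 1 of the 4, and TATA letters in none of either. Over all members, the 9 windows with CRE letters had a median ratio of 0.21, against 0.05 without them. These 9 include the 3 just named, and the rest had ratios from 0.23 for Zfp266 to -0.16 for Zfp874a. The 25 windows with RFX letters had a median of 0.02, against 0.06 without them. With and without NF-Y letters the medians were 0.03 and 0.07, and with and without TATA letters -0.01 and 0.05. For Sp1 they were 0.04 and 0.07, for MYB 0.02 and 0.05, and for ETS 0.07 and 0.04. For the short ZNF143 form they were 0.07 and 0.04. A match describes letters and not a bound site.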

How the data were processed

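RNA-seq of 1 library each of Piwil1-/- and Piwil1+/- testis was used. The authors deposited RPKM values per gene, per the file headers. RNA was depleted of rRNA for directional libraries, per the labels' protocols. Per the submitters' processing notes, STAR, Bowtie and mm10 were used. The read counter, the annotation and whether strand was used: not given in the sources used here. Overlapping genes may therefore share reads.

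Members and lists were chosen with earlier results of these data known, and the letters searched in start windows after some windows had been read. Log2 ratios of RPKM + 1 were computed for the whole table with Python 3.11.15, numpy 2.4.6 and pandas 2.3.3, over genes at 1 RPKM or more in either library. Reads were recovered, by a method tested on simulated data, as the smallest whole numbers that fit both RPKM values of a gene. The library totals came from 72 short genes, and 15329 of 16558 genes above 0 in both gave reads. Gene symbols were found for 22444 of 22808 identifiers. Named members are the 12 highest by level, the 12 highest and 12 lowest ratios, those past 2-fold, 3 on each side of the threshold and those on the role lists. The rule also named the 5 members with most fingers, which were not analysed here for want of protein sequences. Genes flanking the called members and genes chosen for the promoter comparison were named after their values were seen. Alternatives changed the pseudocount, the level filter and the scaling.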

Additional observations from a re-analysis of the deposited data

How the results depend on the processing

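The alternatives were other pseudocounts, level filters and scalings. With a pseudocount of 0.1 RPKM, 17 members were 1.5-fold higher in Piwil1-/- in place of 10, and 4 were 2-fold higher in place of 1, while 2.83% of all genes were 1.5-fold higher and 7.02% lower. With 0.5 RPKM, 2 members were 2-fold higher. These pseudocounts weigh low genes more. In every setting 5 members were 1.5-fold lower. The median log2 ratio of members lay between 0.03, over all Zfp genes above 0, and 0.07. The share above 0 lay between 61.2%, after rescaling, and 64.8%, against 49.4% to 52.04% of all genes. Rescaling moved ratios by 0.01. Of 236 values for 34 named members 233 kept their call, 3 newly passed 1.5-fold (Zfp507 at 0.1 RPKM, Zfp688 at 0.1 and 0.5 RPKM), and 0 changed sign. Much of this was fixed in advance, so it is no measure of how stable the calls are. A level filter leaves the ratio of a single gene as it is, and a pseudocount cannot change its sign. No paired analysis was possible because each genotype has 1 library, so none could be left out either. A planned split by KRAB box was not run, since protein sequences were not used here. Differences between animals cannot be judged from these libraries.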
